A study of Mus musculus with 16 samples.

Results

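The genes of oxidative phosphorylation were read in bone marrow-derived dendritic cells (BMDCs) with and without stimulation of STING by c-di-GMP. The set holds the genes whose symbols follow the naming of the subunits of respiratory complexes I to V, 86 of the 23356 genes of the deposited table. These symbols start with Nduf and then a, b, c, s or v and a number, with Sdha to Sdhd, or with Uqcr, Cox4 to Cox8 or Atp5. Ndufab1 and the Ndufaf assembly factors are thus left out. Of the 86 genes, 80 encode subunits, with 35 in complex I, 4 in complex II, 8 in complex III, 18 in complex IV and 15 in complex V. Another 6 carry a matching symbol but are no subunits: Sdhaf1 and Sdhaf2, which help to assemble complex II, Cox7a2l, which joins complexes into supercomplexes, Ndufa4l2, a paralog of Ndufa4, and Atp5s and Atp5sl. The choice used symbols alone and no measured value. The subunits that are encoded in mitochondrial DNA carry other symbols and were not analysed here.

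RNA-seq of poly(A) RNA was carried out on BMDCs of 4 genotypes on a C57BL/6 background: wild-type, Tmem173-/- (no STING), Irf1-/-, and Irf3/7-/-, which lack both Irf3 and Irf7. The cells were grown from bone marrow with GM-CSF and IL-4 and then kept for 18 h without treatment or with c-di-GMP, a bacterial dinucleotide that binds STING, which gave 8 conditions with 2 samples each. The labels give its dose as 25 µg/ml, while the study's figure legends name a higher dose, and the difference could not be settled here. The authors combined the samples of a condition before deposition, so each gene has 1 value per condition, with the authors' confidence interval but with no spread between replicates. The sources used here name no sort of the cultures, and in bulk RNA fewer cells of a type and less RNA per cell cannot be told apart.

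Oxidative phosphorylation couples the transfer of electrons to the synthesis of ATP in the inner mitochondrial membrane. Complex I takes electrons from NADH and complex II takes them from succinate, complex III passes them to cytochrome c, complex IV hands them to oxygen, and complex V uses the proton gradient built on the way to make ATP. Dendritic cells and macrophages are known to shift from respiration towards glycolysis when they are activated by microbial products.

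Values are FPKM, the which relates a gene's fragments to its transcript length and to all mapped fragments, as deposited. Changes are differences of log2(FPKM + 0.1). A gene was tested in a comparison where it reached 1 FPKM in at least 1 of the conditions compared, and it was called higher or lower where it changed more than 2-fold and the authors' intervals did not overlap. FPKM does not show how many reads lie behind a value. As a measure of precision, the intervals reached on median between 24.6% and 25.3% of the FPKM to either side for the members at 10 FPKM or more. The interval was not always centred on its FPKM. For 17 of the members at 10 FPKM or more, Uqcr11 and Ndufb6 among them, the FPKM lay outside its own interval in at least 1 condition, and for Atp5d and Ndufs7 the interval was wider than the FPKM.

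The targeted genes and the culture were checked on the same scale. Tmem173 stood at 103 and 118 FPKM in untreated and treated wild-type BMDCs and at 8.97 and 7.49 FPKM in those of Tmem173-/- mice. Irf1 stood at 25.9 and 116 FPKM in Irf1-/- BMDCs, against 149 and 245 FPKM in wild-type ones. In Tmem173-/- BMDCs Irf1 stood at 24.1 and 23.3 FPKM and was also called lower than in wild-type (−2.63 and −3.39). A low Irf1 level thus did not mark the Irf1-/- BMDCs alone. Irf7 was likewise called lower in Tmem173-/- BMDCs, at 3.17 and 3.37 FPKM (−2.23 and −7.63). Irf7 stood at 1.07 and 4.97 FPKM in Irf3/7-/- BMDCs, against 15.2 and 687 FPKM, and Irf3 stood there at 7.74 and 20.2 FPKM, against 19.9 and 15.8 FPKM, so that it was called lower in the untreated cells (−1.36) and not in the treated ones (0.35). These are values of whole genes, and the deleted exons are not given in the sources used here, so they check the labels only in part. Of 9 dendritic cell markers, 8 or 9 reached 1 FPKM in every condition. The summed FPKM of the 7 neutrophil markers measured was 20003 and 14533 in untreated and treated Tmem173-/- BMDCs, 4015 and 1905 in wild-type BMDCs, and between 1407 and 2460 in the other knockouts. S100a8 and S100a9 made up most of each sum. With and without treatment, they were lower in Irf1-/- and Irf3/7-/- than in wild-type BMDCs, as were Ltf and Ngp. Elane and Mpo were higher there in both states. Camp was lower except in untreated Irf3/7-/- BMDCs. The 6 macrophage markers summed to 489 and 475 FPKM in Tmem173-/- BMDCs and to between 165 and 273 FPKM elsewhere. These markers did not move alike. Csf1r, Cd68, Mrc1 and Emr1 were higher in Tmem173-/- than in wild-type BMDCs, with and without treatment, and Fcgr1 only without it. Mertk was lower, at 2.83 and 3.74 FPKM against 4.89 and 16.9 FPKM. The 7 T and NK cell markers summed to 2.79 and 2.30 FPKM in Tmem173-/- BMDCs, to 12.7 and 13.9 FPKM in Irf1-/- BMDCs and to between 391 and 1138 FPKM in the other BMDCs. The part of these cells in the results below was not tested.

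Most of the set was well expressed. The mean FPKM over the 8 conditions was at least 10 for 76 of the 86 members and at least 100 for 54. Atp5b, the catalytic β subunit of the ATP synthase, had the highest mean, 708 FPKM, followed by Cox8a of complex IV with 686 FPKM. In the other complexes the highest means were those of Uqcrh in complex III with 361 FPKM, Ndufa3 in complex I with 275 FPKM and Sdhd, a membrane anchor of complex II, with 189 FPKM. The lowest means in complexes I, II, III and V were 16.7 FPKM for Ndufa11, 103 FPKM for Sdhc, 102 FPKM for Uqcrc2 and 193 FPKM for Atp5g1. Complex IV was the complex with silent members. Cox4i2, Cox7b2, Cox8b and Cox8c, forms of complex IV subunits that are known from other tissues such as lung, muscle or testis, stayed below 1 FPKM in all 8 conditions, as did Ndufa4l2, and none of the 5 exceeded 0.158 FPKM. The low-level members between were Cox6a2, Cox6b2 and Cox7a1 of complex IV and Atp5s and Atp5sl, none above 14.9 FPKM.

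Letters of the promoters are given for 4 members whose responses are described below, to show the motifs that were searched in the 71 members matched to RefSeq promoters (250 bases before to 50 bases after the start). The motif of NRF1, a regulator of nuclear genes for respiration, was searched as GCGCATGCG, that of the ETS family, to which GABP belongs, as CCGGAAG, that of YY1 as AAGATGGCG, and the interferon response element by its core repeat, each on both strands. The NRF1 letters were found in 8 of the 71 members (11.3%) and in 1.95% of 27025 genes, the ETS letters in 18 (25.4%) and in 9.93%, and the YY1 letters in 8 (11.3%) and in 1.64%. The interferon response element was found in 2 members (2.82%), Ndufa9 and Ndufs3, and in 3.99% of all genes. Capitals mark a match. Uqcr11 (chr10:80406772-80407071, minus strand) holds ETS and NRF1 letters, and Uqcrc1 (chr9:108936398-108936697, plus strand) holds NRF1 letters on both strands, which overlap each other. Atp5g3 (chr2:73911277-73911576, minus strand) holds none of the 4, and Ndufs3 (chr2:90904672-90904971, minus strand) holds the interferon response element and ETS letters on both strands. Sequences are from RefSeq on GRCm38.p6, 5′ to 3′.
Uqcr11: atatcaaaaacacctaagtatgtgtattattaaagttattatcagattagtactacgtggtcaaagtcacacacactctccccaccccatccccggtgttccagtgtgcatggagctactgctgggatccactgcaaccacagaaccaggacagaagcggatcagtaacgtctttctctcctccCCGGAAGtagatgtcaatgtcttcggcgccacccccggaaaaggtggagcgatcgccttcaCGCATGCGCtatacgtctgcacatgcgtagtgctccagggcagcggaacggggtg
Uqcrc1: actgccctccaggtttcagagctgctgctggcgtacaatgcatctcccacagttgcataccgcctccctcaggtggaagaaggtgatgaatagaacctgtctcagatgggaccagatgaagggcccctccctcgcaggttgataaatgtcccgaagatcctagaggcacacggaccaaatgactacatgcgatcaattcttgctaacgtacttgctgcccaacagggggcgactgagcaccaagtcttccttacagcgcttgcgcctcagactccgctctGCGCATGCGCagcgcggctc
Atp5g3: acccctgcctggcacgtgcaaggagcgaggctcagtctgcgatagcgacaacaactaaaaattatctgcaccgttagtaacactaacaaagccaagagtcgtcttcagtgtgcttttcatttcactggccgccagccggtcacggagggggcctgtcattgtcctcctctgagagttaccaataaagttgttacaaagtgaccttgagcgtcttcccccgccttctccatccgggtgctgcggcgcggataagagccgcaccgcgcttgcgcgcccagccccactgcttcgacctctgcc
Ndufs3: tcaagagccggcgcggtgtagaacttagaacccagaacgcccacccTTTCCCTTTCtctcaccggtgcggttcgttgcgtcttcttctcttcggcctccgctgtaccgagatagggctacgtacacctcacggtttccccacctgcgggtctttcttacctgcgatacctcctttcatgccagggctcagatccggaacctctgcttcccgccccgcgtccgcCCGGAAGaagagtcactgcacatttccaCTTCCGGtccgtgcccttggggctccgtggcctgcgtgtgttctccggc
The responses of members with and without a motif were set side by side. In wild-type BMDCs the median log2 change upon c-di-GMP was −0.46 in the 8 members with NRF1 letters and −0.45 in the 61 tested without them. It was −0.37 in the 18 with ETS letters and −0.54 in the 51 without them. Uqcr11 and Uqcrc1 were among the members that were lower after c-di-GMP and Ndufs3 had the highest change in wild-type BMDCs, while Atp5g3, with no match, was called lower.

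In wild-type BMDCs, the set as a whole was lower after c-di-GMP. The median log2 change was −0.40 over the 81 members tested and 0.00 over all 11201 genes tested. A total of 74 of the 81 members (91.4%) lay below 0, against 49.8% of all genes. The members took 2.98% of the summed FPKM of all genes before and 1.86% after treatment. For most members the change was small beside the intervals. Called lower were 5 of 81 members and none higher, in a comparison where 9.96% of all tested genes were called lower and 10.5% higher, so the share of members called was no larger than that of all genes. With the intervals apart and no fold threshold, 11 members were lower, against 13.5% of all genes. Beside all tested genes, nearly the whole list was thus shifted in 1 direction, by less than 2-fold for most. Such a shift was not particular to the members. In wild-type BMDCs, 75 of 78 genes for cytosolic ribosomal proteins (median −0.46) and all 14 tricarboxylic acid cycle genes also lay below 0.

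**Figure D1:**
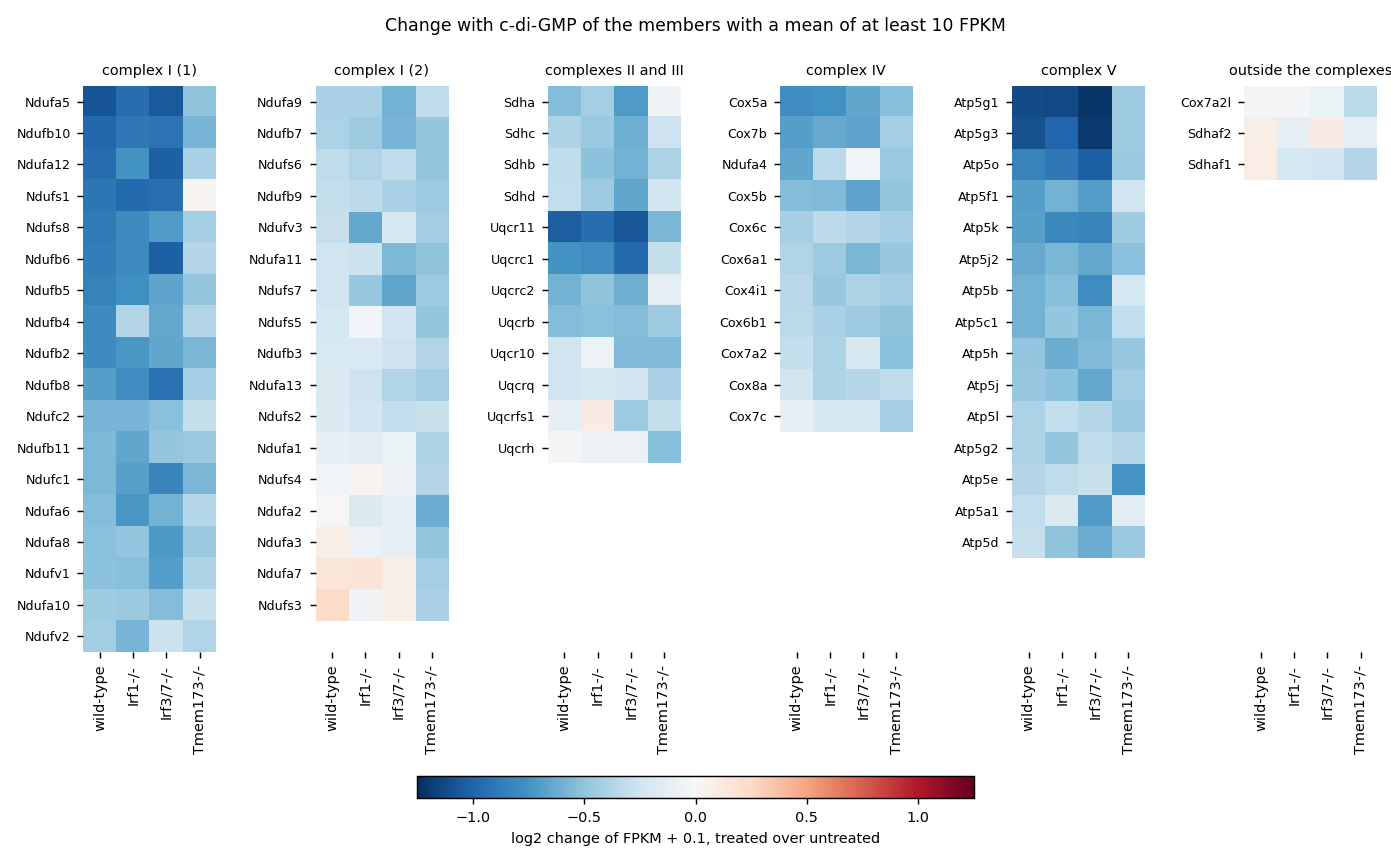
Log2 change of FPKM + 0.1 with c-di-GMP (color) for the 76 members with a mean of at least 10 FPKM, in rows by complex and sorted by the wild-type value, with 1 column per genotype. Blue is lower after c-di-GMP. The wild-type, Irf1-/- and Irf3/7-/- columns share their darkest rows (Atp5g1, Atp5g3, Uqcr11, Ndufa5), while the Tmem173-/- column is of a more even, paler blue.

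In complex I, the median log2 change in wild-type BMDCs was −0.44 over its 35 members, 32 of them below 0, and 6 had intervals that did not overlap and were lower. Ndufa5 (chr6:24518666-24528013), a subunit of the arm that reaches into the matrix, fell from 89.8 FPKM (authors' interval, 54.4 to 105) to 42.3 FPKM (25.1 to 50.4). The log2 change was −1.08. Ndufs1 (chr1:63143596-63176833), the iron-sulfur subunit that is the largest of the complex, stood at 41.9 FPKM (32.1 to 51.6) and 22.3 FPKM (16.9 to 27.7), a log2 change of −0.91. Its intervals did not overlap, but the change lay below 2-fold, as it did for Ndufb10, Ndufa12, Ndufs8 and Ndufb5, with log2 changes from −0.98 to −0.84. At the other end stood Ndufs3 (82.2 and 97.2 FPKM, log2 change 0.24), Ndufa7 (144 and 160 FPKM, 0.15) and Ndufa3 (277 and 291 FPKM, 0.07), whose intervals overlapped. Of the 35-base windows in the transcripts of Ndufs3, 45.8% also occur in other genes, and its exons overlap those of Kbtbd4 on the opposite strand, so its value is less certain.

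In complex II, all 4 subunits lay below 0, with a median of −0.36 and overlapping intervals. Sdha, the flavoprotein that oxidizes succinate, stood at 130 and 89.2 FPKM in wild-type BMDCs (−0.54), and Sdhd at 210 and 169 FPKM (−0.31). The assembly factors Sdhaf1 and Sdhaf2 stood at 26.1 and 27.8 FPKM and at 24.7 and 26.3 FPKM, both with a log2 change of 0.09.

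In complex III, all 8 members lay below 0, with a median of −0.40, but they were spread widely. Uqcr11 (chr10:80402997-80406830), a small subunit, fell from 228 FPKM (128 to 230) to 112 FPKM (61.7 to 119), with a log2 change of −1.03. A share of 17.8% of its 35-base windows also occurs in another gene. Uqcrc1, a core subunit, stood at 179 FPKM (135 to 223) and 107 FPKM (78.9 to 135). Its log2 change was −0.75, and its intervals met at their edges without overlap. Uqcrh, the hinge protein, stood at 369 and 364 FPKM (−0.02), and Uqcrfs1, the Rieske iron-sulfur protein, at 168 and 156 FPKM (−0.10). The change thus differed between subunits that are built into the same complex, by about 1 log2 unit from Uqcr11 to Uqcrh.

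In complex IV, the 11 members at 10 FPKM or more had a median of −0.38, from −0.78 for Cox5a (522 and 304 FPKM) to −0.10 for Cox7c (223 and 207 FPKM), with overlapping intervals throughout. The only called gene was a low one. Cox7a1 (chr7:30184144-30186078), the form of subunit 7a known from heart and skeletal muscle, fell from 8.17 FPKM (3.59 to 9.34) to 1.59 FPKM (0.435 to 2.72), with a log2 change of −2.29. It made up 3.41% of the summed FPKM of Cox7a1 and Cox7a2 in untreated and 0.835% in treated cells. Cox7a2, the widely expressed form, stood at 232 and 189 FPKM (−0.30).

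In complex V, all 15 members lay below 0 and the median, −0.59, was the lowest of the 5 complexes. The genes for subunit c, which forms the rotating ring, were far apart. Atp5g1 (chr11:96068852-96075670) stood at 238 FPKM (179 to 296) and 109 FPKM (84.6 to 134), and Atp5g3 (chr2:73908447-73911326) at 681 FPKM (397 to 713) and 320 FPKM (185 to 332). Both were called lower, with log2 changes of −1.12 and −1.09. Atp5g2, whose mature protein is the same, stood at 348 and 267 FPKM, a log2 change of −0.38 with overlapping intervals, and its share of the summed FPKM of the 3 genes was 27.5% in untreated and 38.3% in treated cells. Most windows of Atp5g2 (87.7%) also occur in other genes, so its value is uncertain, whereas no window of Atp5g3 and 12.9% of those of Atp5g1 do. The catalytic subunit Atp5b stood at 836 and 553 FPKM (−0.60) and Atp5a1 at 499 and 403 FPKM (−0.31), with overlapping intervals.

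The Irf1-/- and Irf3/7-/- BMDCs, which lack factors downstream of STING, gave responses of the same pattern. In Irf1-/- BMDCs the median log2 change was −0.47 over 81 members, with 76 below 0, and the share of the summed FPKM was 2.98% before and 2.0% after treatment. Called lower were 2 members, where 7.81% of all tested genes were called lower, and 7 had lower intervals that did not overlap, where 11.0% of all genes did. In Irf3/7-/- BMDCs the median was −0.57 over 81 members, with 76 below 0, and the shares were 2.95% and 1.83%. Called lower were 7 members, where 7.68% of all genes were, and 13 had lower intervals apart, where 11.4% of all genes did. No member was called higher in either knockout, where 9.67% and 10.2% of all genes were. Over all tested genes the medians were 0.00 in both.

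**Figure D2:**
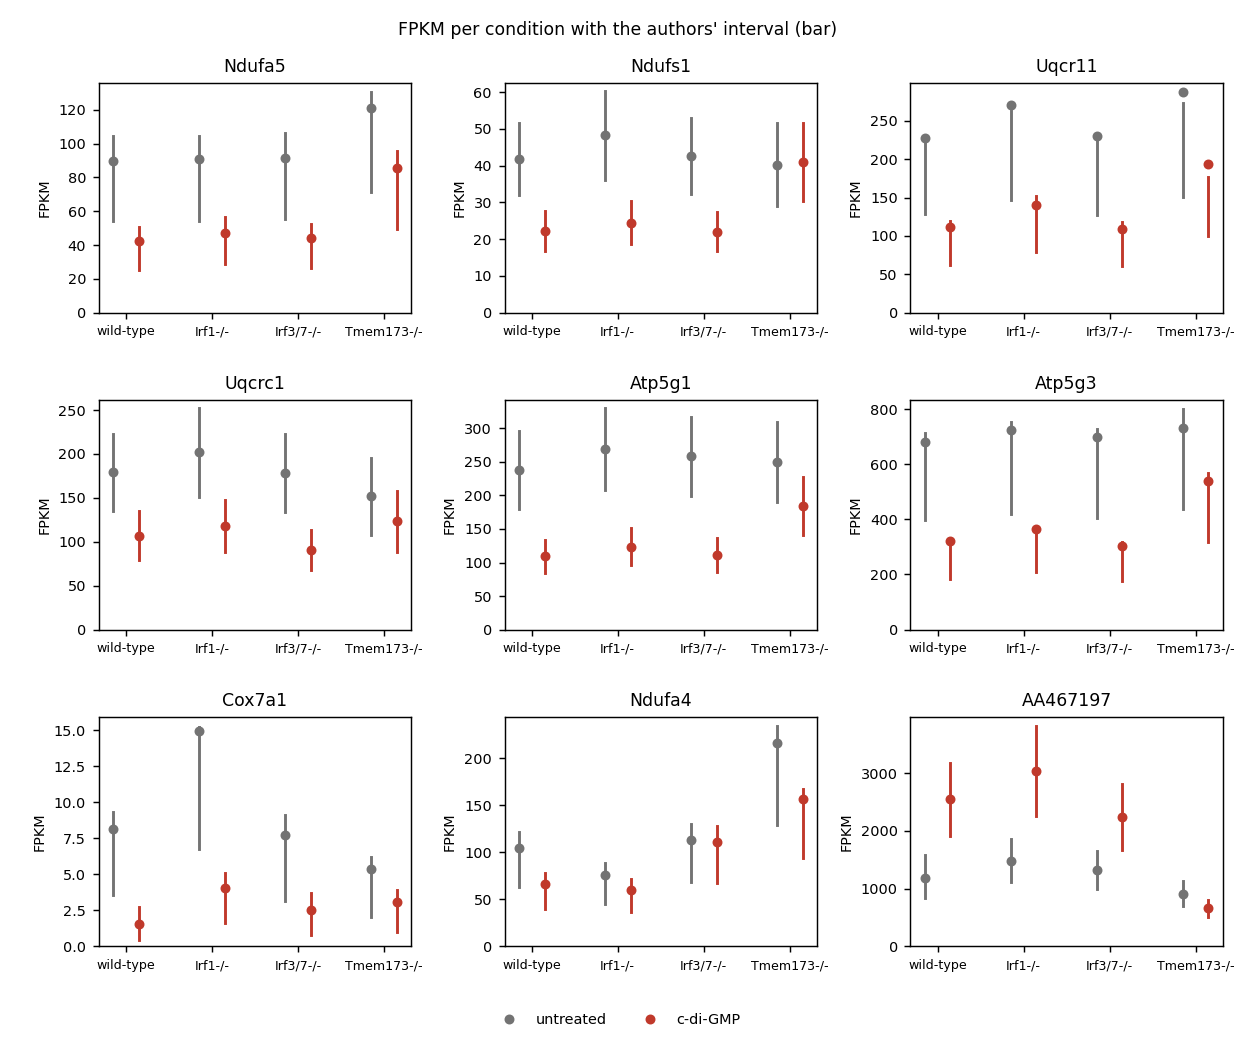
FPKM (points) with the authors' intervals (bars) in the 8 conditions for 7 members that are described in the text, for Ndufa4 and for its paralog AA467197, grey without treatment and red after c-di-GMP, with an axis of its own in each panel. Atp5g1 fell from between 238 and 269 to between 109 and 123 FPKM in wild-type, Irf1-/- and Irf3/7-/- BMDCs and stood at 250 and 184 FPKM in Tmem173-/- BMDCs, and some points, as for Uqcr11, lie at or above the end of their bar.

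Gene by gene the members kept their places. Atp5g1 was called lower in all 3 genotypes: it stood at 269 FPKM (208 to 330) and 123 FPKM (95.6 to 151) in Irf1-/- BMDCs, and at 258 FPKM (199 to 317) and 111 FPKM (85.9 to 136) in Irf3/7-/- BMDCs, with log2 changes of −1.13 and −1.22. The intervals were apart in all 3 genotypes for 5 members, Atp5g1, Atp5g3, Ndufb10, Ndufs1 and Uqcrc1, and in at least 1 of the 3 for 16. The share of all genes was not computed for these combined counts. Taken singly, 13.5% of all genes had lower intervals apart in wild-type, 11.0% in Irf1-/- and 11.4% in Irf3/7-/- BMDCs. Ndufs1 stood at 48.2 and 24.5 FPKM in Irf1-/- BMDCs (−0.97) and at 42.6 and 22.1 FPKM in Irf3/7-/- BMDCs (−0.94). Ndufa5 stood at 91.1 and 47.1 FPKM in Irf1-/- BMDCs, a log2 change of −0.95 with overlapping intervals, and fell from 91.7 to 44.2 FPKM in Irf3/7-/- BMDCs (−1.05). The other members called lower in Irf3/7-/- BMDCs were Atp5g3 (−1.19), Uqcr11 (−1.07), Ndufa12 (−1.02), Atp5o, a subunit of the stalk of complex V (−1.02), and Ndufb6 (−1.02). For Atp5o and Ndufa12, 44.0% and 28.6% of the windows occur in other genes. Cox7a1 fell from 14.9 to 4.05 FPKM in Irf1-/- BMDCs (−1.86) and stood at 7.75 and 2.50 FPKM in Irf3/7-/- BMDCs, a log2 change of −1.60 with overlapping intervals.

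Of the 76 members at a mean of 10 FPKM or more, 69 lay below 0 in wild-type, Irf1-/- and Irf3/7-/- BMDCs alike, and Ndufa7 lay above 0 in all 3 (0.15, 0.16 and 0.08). The other 6 were of mixed sign, namely Ndufa3, Ndufs3, Ndufs4, Sdhaf1, Sdhaf2 and Uqcrfs1. Across these 76 genes the log2 change in wild-type BMDCs had a Pearson r of 0.90 with that in Irf1-/- BMDCs and of 0.86 with that in Irf3/7-/- BMDCs, and the latter pair had an r of 0.84. The genes are not replicates and the members share libraries, so these values describe the 76 genes and carry no test, but no column enters more than 1 response.

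The Tmem173-/- BMDCs stood apart in another way than by the median. The median log2 change of the 80 members tested was −0.43, close to that in wild-type BMDCs, and 79 lay below 0, against 53.2% of all 10867 genes tested and a median of −0.02. The share of the summed FPKM was 2.73% before and 2.25% after treatment. These shares also depend on the sum over all genes, which went from 710814 to 641016 in Tmem173-/- and from 595544 to 701605 in wild-type BMDCs. The members themselves summed to 19373 and 14437 FPKM in Tmem173-/- and to 17741 and 13021 FPKM in wild-type BMDCs. No member was called, where 0.00920% of all genes were called lower and 0.0460% higher, and none had lower intervals apart, where 0.0184% of all genes did. The middle of the list was narrow: the quartiles of the log2 change were −0.48 and −0.35, compared with −0.68 and −0.25 in wild-type BMDCs. The pattern over the 76 members was also another one, with an r of 0.04 with wild-type, 0.06 with Irf1-/- and −0.04 with Irf3/7-/- BMDCs.

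**Figure D3:**
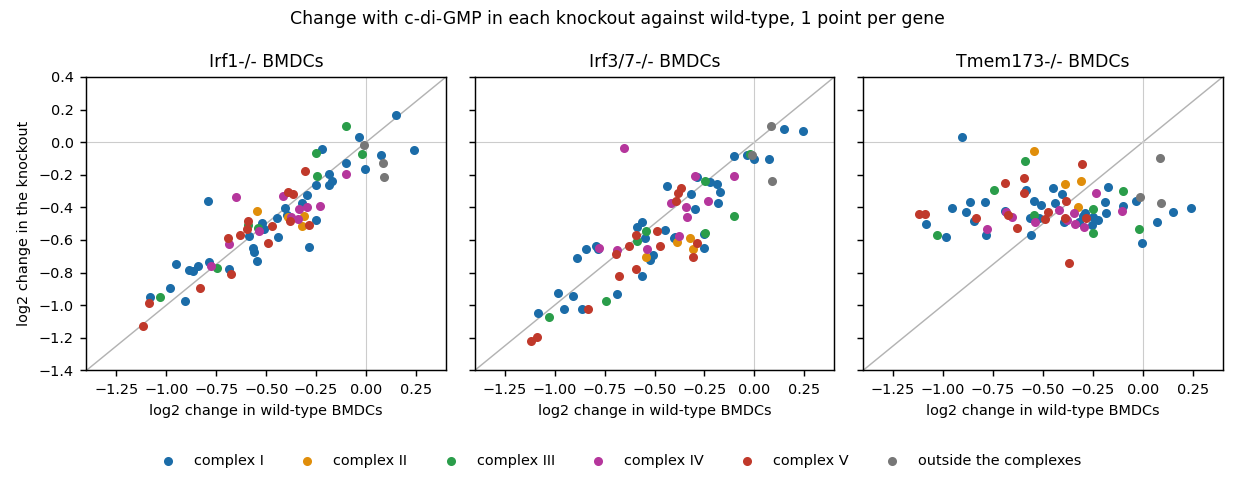
Log2 change with c-di-GMP in each knockout (y axis) against that in wild-type BMDCs (x axis) for the 76 members, colored by complex, with the line of equal change. The points follow the line in Irf1-/- (r = 0.90) and Irf3/7-/- BMDCs (r = 0.86) and form a flat band near −0.43 in Tmem173-/- BMDCs (r = 0.04).

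Members that were lower in treated wild-type BMDCs show the difference. Ndufs1 stood at 40.2 FPKM (28.9 to 51.6) in untreated and 41.0 FPKM (30.4 to 51.7) in treated Tmem173-/- BMDCs, which gave a log2 change of 0.03. Atp5g1 stood at 250 FPKM (190 to 310) and 184 FPKM (141 to 227), a log2 change of −0.44, and Atp5g3 at 732 and 540 FPKM, also −0.44. Ndufa5 stood at 121 and 85.5 FPKM (−0.50), and Sdha at 109 and 104 FPKM (−0.06). In each case the intervals of the untreated and treated BMDCs overlapped. The reverse was seen for members with little change in wild-type BMDCs. Ndufa2 stood at 199 and 130 FPKM in Tmem173-/- and at 135 and 135 FPKM in wild-type BMDCs (−0.62 and 0.00), and Ndufs3 at 85.0 and 64.3 FPKM in Tmem173-/- BMDCs (−0.40). The lowest change in Tmem173-/- BMDCs among members at 10 FPKM or more was that of Atp5e, the ε subunit of complex V, with 642 and 384 FPKM (−0.74).

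The length of the transcript moved with the response in Tmem173-/- BMDCs. Oxidative phosphorylation genes are short, with a median spliced length of 670 bases for the 76 members and 2554 bases for the genes at large. In Tmem173-/- BMDCs the Spearman rho of spliced length with the log2 change was 0.67 over the 76 members, so that shorter transcripts had the lower values. It was 0.04 in wild-type and −0.10 in Irf3/7-/- BMDCs, and 0.07 over 77 members in Irf1-/- BMDCs. Genes outside the set behaved alike by length. In Tmem173-/- BMDCs, the 703 other genes below 1000 bases and at 10 FPKM or more had a median of −0.36 and the 5152 longer ones −0.03, beside −0.46 for the 54 short members and −0.30 for the 22 long ones. In wild-type BMDCs the 709 short other genes had a median of −0.08 and the 5447 longer ones 0.05, beside −0.43 for the short members and −0.36 for the long ones. When the median of the short other genes was subtracted, a setting chosen after seeing the data, the median of the members was −0.07 in Tmem173-/- BMDCs and −0.32 in wild-type BMDCs. The same value was subtracted from the 22 long members, which are not matched to short genes. Before it, their median in Tmem173-/- BMDCs (−0.30) lay below that of the longer other genes (−0.03). A non-coding RNA was also higher in the untreated than in the treated Tmem173-/- BMDCs: Rn45s, the ribosomal RNA precursor, named after its values were seen, stood at 566 and 196 FPKM. In Irf3/7-/- BMDCs, where no such relation with length was seen, it was called higher after treatment, at 143 and 293 FPKM (1.03). The part of transcript length and of the RNA of these samples in the values was not tested.

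**Figure D4:**
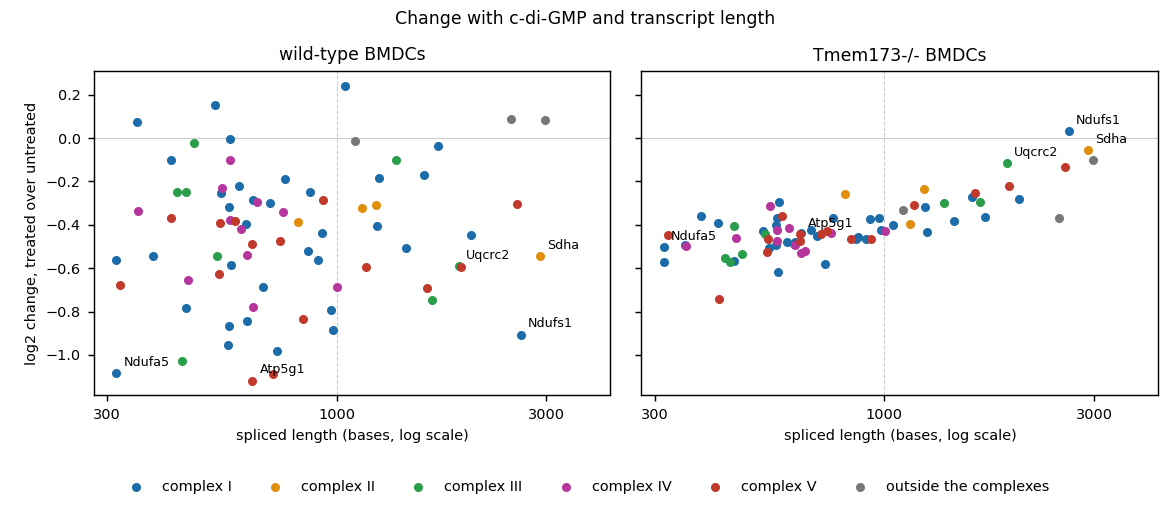
Log2 change with c-di-GMP (y axis) against spliced length in bases (x axis, log scale) for the members in wild-type (left) and Tmem173-/- BMDCs (right), with a dashed line at 1000 bases. On the right the points climb with length from Atp5e at −0.74 to Ndufs1 at 0.03 (rho 0.67), and on the left they do not (rho 0.04).

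Between the treated knockouts and treated wild-type BMDCs, few members differed. All 3 knockouts were set against the same treated wild-type values. Treated Tmem173-/- BMDCs had a median log2 difference of 0.19 over 81 members, with 53 above 0, and over all genes the median was 0.02. Ndufa4 was called higher, 1 of 81 members, where 12.9% of all tested genes were called higher and 13.5% lower. Atp5g1 (184 against 109 FPKM, 0.75) and Ndufs1 (41.0 against 22.3 FPKM, 0.88) had higher intervals that did not overlap, which makes 3 members with Ndufa4, where 16.8% of all genes did. Ndufa5 stood at 85.5 against 42.3 FPKM, a difference of 1.01 with overlapping intervals. The lowest differences were those of Sdhaf1 (−0.64), Ndufs3 (−0.59) and Uqcrfs1 (−0.53). In treated Irf1-/- BMDCs the median was 0.06 and no member was called, where 2.65% of all genes were called higher and 4.91% lower. The largest differences at 10 FPKM or more were 0.41 for Ndufb4 and −0.29 for Ndufs3. In treated Irf3/7-/- BMDCs the median was −0.09, with 61 of 81 members below 0. The called gene was Cox6a2, the form of subunit 6a known from muscle, at 3.09 FPKM (1.88 to 4.30) against 1.01 FPKM (0.393 to 1.65), a log2 difference of 1.52, where 4.61% of all genes were called higher and 2.69% lower. Its level was low in all conditions, at most 3.09 FPKM. Its exons overlap those of Itgad on the opposite strand, which was looked up after the values of Cox6a2 were seen and stood at no more than 0.106 FPKM.

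Without treatment, few members were called between the genotypes. Below wild-type lay 21 of 80 members in Tmem173-/-, 18 of 80 in Irf1-/- and 40 of 81 in Irf3/7-/- BMDCs. Of all tested genes, 49.0%, 50.4% and 53.7% lay below it. In untreated Tmem173-/- BMDCs the median log2 difference from wild-type was 0.15 over 80 members, and Ndufa4 was called higher, where 5.04% of all genes were called higher and 5.95% lower. The shorter members were again apart from the longer ones, with medians of 0.21 and −0.03, as were the other genes, with medians of 0.22 below 1000 bases and 0.00 above. In untreated Irf1-/- and Irf3/7-/- BMDCs no member was called, where 1.26% and 1.17% of all genes were called higher and 3.52% and 0.863% lower, and the medians were 0.07 and 0.00. In these comparisons of Irf1-/- and Irf3/7-/- BMDCs the members with 10 FPKM or more in a compared condition differed most at Cox7a1 in Irf1-/- BMDCs, with 14.9 FPKM (6.74 to 15.2) beside 8.17 FPKM (3.59 to 9.34) and overlapping intervals.

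Among the members with a mean of 10 FPKM or more, Ndufa4 differed most from wild-type BMDCs in any knockout. It was first assigned to complex I, as its symbol says, and is now known as a subunit of complex IV. It stood at 105 FPKM (63.3 to 121) and 66.5 FPKM (40.0 to 78.2) in untreated and treated wild-type BMDCs. In Tmem173-/- BMDCs it stood at 216 FPKM (129 to 234) and 157 FPKM (94.3 to 167), log2 differences from wild-type of 1.04 and 1.24. In Irf1-/- BMDCs it stood at 76.0 and 60.2 FPKM, and in Irf3/7-/- BMDCs at 113 and 111 FPKM. Its response in Irf3/7-/- BMDCs was −0.03, beside −0.65 in wild-type, −0.34 in Irf1-/- and −0.46 in Tmem173-/- BMDCs, with overlapping intervals in every genotype.

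AA467197, also called Nmes1, is a paralog of Ndufa4 that is known to take its place in complex IV in inflamed cells. It is no member of the set and was chosen after its values were seen. It stood at 1181 FPKM (833 to 1575) in untreated and 2546 FPKM (1908 to 3183) in treated wild-type BMDCs and was called higher, with a log2 change of 1.11. It rose in the same way in Irf1-/- BMDCs, from 1485 to 3035 FPKM (1.03). In Irf3/7-/- BMDCs it stood at 1316 and 2241 FPKM, with intervals apart and a log2 change of 0.77, below 2-fold. In Tmem173-/- BMDCs it stood at 912 and 658 FPKM (−0.47), with overlapping intervals. The ratio of AA467197 to Ndufa4 was 11.3 before and 38.3 after treatment in wild-type BMDCs, 19.5 and 50.4 in Irf1-/-, 11.6 and 20.2 in Irf3/7-/-, and 4.22 and 4.19 in Tmem173-/- BMDCs. The paralog was thus above Ndufa4 in all 8 conditions on a scale per length, and the ratio was higher after c-di-GMP in the 3 genotypes with STING.

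Other mitochondrial genes were compared as lists. Among all tested genes, 9.96% were called lower and 10.5% higher in wild-type BMDCs. The shares called lower were 7.81% in Irf1-/- and 7.68% in Irf3/7-/- BMDCs. In wild-type BMDCs, 5 of the 14 genes of the tricarboxylic acid cycle, which feeds NADH and succinate into the chain, were called lower and none higher, and all 14 lay below 0 with a median of −0.77. Idh2, the mitochondrial isocitrate dehydrogenase that uses NADP, fell from 50.1 to 11.1 FPKM (−2.17), Fh1, fumarate hydratase, from 117 to 34.9 FPKM (−1.74), Idh3a from 47.6 to 15.8 FPKM (−1.58), and Mdh2, malate dehydrogenase, from 486 to 216 FPKM (−1.17). The list had 4 and 6 genes called lower in Irf1-/- and Irf3/7-/- BMDCs, with medians of −0.70 and −0.82. In Tmem173-/- BMDCs none was called, where 0.00920% of all genes were called lower and 0.0460% higher, and the median was −0.07. There Idh2 stood at 47.7 and 44.8 FPKM, Fh1 at 84.0 and 76.1 FPKM, and Idh3a at 47.2 and 45.4 FPKM. The 16 tested genes of mitochondrial transcription and biogenesis had 3 called lower in wild-type BMDCs, the coactivators Ppargc1b (6.62 and 1.77 FPKM) and Pprc1 and the RNA-binding protein Lrpprc, with a median of −0.68, and none called in Tmem173-/- BMDCs, with a median of −0.06. For these 2 lists, the medians in Tmem173-/- BMDCs lay near that of all genes, unlike the median of the subunits.

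Electron transport genes that the symbols did not take up, such as Cyc1, Cycs and Etfb, had a median of −0.69 over 10 genes in wild-type BMDCs, with Etfb (130 and 58.9 FPKM) and Dhodh (5.71 and 2.46 FPKM) called lower, and of −0.35 in Tmem173-/- BMDCs, with none called. Of the 39 assembly factors tested in wild-type BMDCs, 3 were called lower (Cox10, Ndufaf4 and Ndufaf6) and 1 higher, with a median of −0.22. The one that rose was Sco1, which helps to deliver copper to complex IV, from 5.82 to 16.5 FPKM (1.49). It also rose in Irf1-/- BMDCs, from 4.94 to 16.1 FPKM, and in Irf3/7-/- BMDCs, from 5.62 to 12.0 FPKM, and stood at 3.73 and 3.65 FPKM in Tmem173-/- BMDCs. Mitochondrial ribosomal proteins had 7 of 76 called lower and 1 higher in wild-type BMDCs, with a median of −0.35. The gene that rose was Mrpl13 (63.8 to 182 FPKM, 1.51). Among all tested genes 9.96% were called lower and 10.5% higher, so neither this list nor the assembly factors exceeded those shares. Of 23 mitochondrial import genes, 3 were called lower (Timm8a1, Timm9 and Tomm40), with a median of −0.33. The proteins of the cytosolic ribosome, which are not mitochondrial but are likewise short and highly expressed, had a median of −0.46 over 78 genes in wild-type and −0.46 in Tmem173-/- BMDCs, with none called in either. In Irf1-/- and Irf3/7-/- BMDCs their medians were −0.34 and −0.17, beside −0.47 and −0.57 for the oxidative phosphorylation genes.

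**Figure D5:**
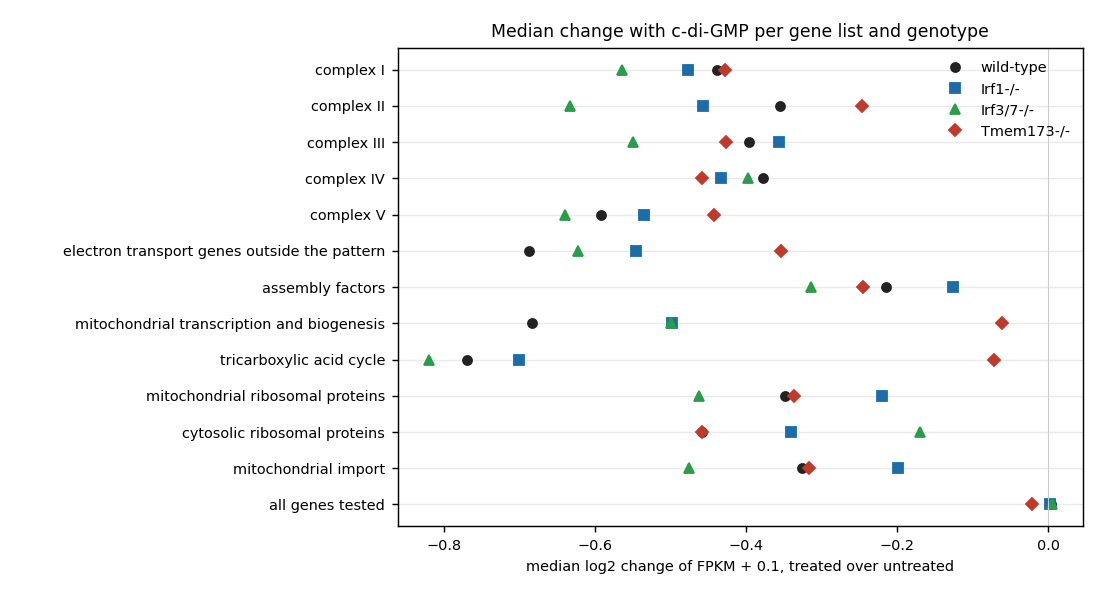
Median log2 change with c-di-GMP (x axis) per complex (members with at least 10 FPKM in a compared condition) and per list (genes tested), with 1 marker per genotype. The Tmem173-/- markers lie near −0.07 for the tricarboxylic acid cycle and −0.06 for biogenesis genes, to the right of the other genotypes, and between −0.46 and −0.25 for the complexes, among or close to the others.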

How the data were processed

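RNA-seq was carried out on BMDCs of 4 genotypes that were left untreated or given c-di-GMP for 18 h (16 samples, 2 for each condition). The authors ran Cuffdiff (version 1.06 in the submitters' processing notes, which also name mm9) and deposited 1 FPKM per gene and condition with a lower and an upper confidence bound and a status, which was OK for all 86 members. The methods name a stranded setting for SeqMonk. For Cuffdiff the setting, and likewise the aligner and annotation, are not given in the sources used here. Loci of the table overlap the GRCm38 gene of the same name (RefSeq) for 21286 of 21522 genes (98.9%), so GRCm38 was used for positions. Positions of the members, spliced lengths and shared windows are from GENCODE M21. A column set headed GDP in place of CDG was read as treated Tmem173-/- BMDCs from its genotype name, and the 4 columns of another knockout were not used.

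Values were compared as log2(FPKM + 0.1). Genes with 1 FPKM or more in either condition were tested, and calls needed a change of more than 2-fold and intervals that did not overlap. The calls were tested on simulated data for genes at 10 FPKM or more. The planted changes were well above 2-fold, and the noise was drawn from the authors' intervals, which the calls also use. How the calls behave on the deposited values, for changes near 2-fold or where an FPKM lies outside its own interval, was not tested. No p-value was computed, since replicates were combined before deposition. Spliced length is the median over protein-coding transcripts inside the listed locus. The members and gene lists were chosen with earlier results of these data known. Named are members called in any of the 10 comparisons, the highest and lowest of each complex, and paralogs. Of the 3 largest rises and falls in each comparison at 10 FPKM or more, and of the called genes of other lists, only a part is named. Alternatives were thresholds of 1.5-fold, 2-fold without the intervals or intervals alone, pseudocounts of 1 and 0.01, no minimum or 5 FPKM, median centring, subunits alone and, added after seeing the data, centring on short transcripts of other genes. Computation was done in scipy 1.17.1, pandas 2.3.3 and numpy 2.4.6 under python 3.11.15, and figures were drawn in matplotlib 3.10.9.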

Additional observations from a re-analysis of the deposited data

How the results depend on the processing

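No paired analysis was possible because the authors combined the replicates of each condition into 1 value, and for the same reason leaving out a replicate was not run. No called member changed direction under any alternative that was tried. The number of members called lower depended on the threshold: with 1.5-fold or with intervals alone it was 11 in wild-type, 7 in Irf1-/- and 13 in Irf3/7-/- BMDCs, and 0 in Tmem173-/- BMDCs. Centring on the short transcripts of other genes, chosen after seeing the data, left 3 members called in Irf3/7-/- BMDCs, 0 in untreated Tmem173-/- against wild-type BMDCs, and medians of −0.0721 for the Tmem173-/- response and of −0.0726 for untreated Tmem173-/- against wild-type BMDCs, which was 0.15 without it and so changed sign. Under it, Uqcr11 in wild-type BMDCs, Atp5o, Ndufa12, Ndufa5 and Ndufb6 in Irf3/7-/- BMDCs and Ndufa4 in untreated Tmem173-/- BMDCs were no longer called. In treated Tmem173-/- against wild-type BMDCs, 3 members were called with 1.5-fold, 3 with 2-fold without the intervals and 3 with intervals alone. Without the intervals, 1 member was called in treated Irf1-/-, 2 in untreated Tmem173-/- and 1 in untreated Irf3/7-/- against wild-type BMDCs. With a minimum of 5 FPKM, 0 members were called in treated Irf3/7-/- against wild-type BMDCs, since Cox6a2 was then not tested. The other 85 counts stayed within 1.5 times and the other 68 medians within 0.1 of their values, although that of untreated Irf3/7-/- against wild-type BMDCs, close to 0, changed sign at a minimum of 5 FPKM (−0.000436). The authors' intervals cannot be checked against replicates, and they limit what can be called: a change below about 2-fold was rarely separable from them.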

Other observations

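Cox17, the copper chaperone that supplies Sco1 and complex IV, is an assembly factor that stood at 479 FPKM in treated wild-type and at 185 FPKM in treated Tmem173-/- BMDCs, a log2 difference of −1.38, and was called lower there. Sco1 was also called lower, at 3.65 against 16.5 FPKM (−2.14), as was Tmem70, an assembly factor of complex V, at 27.3 against 58.6 FPKM (−1.10). Tmem70 was likewise called lower in treated Irf3/7-/- BMDCs, at 27.4 FPKM (−1.10). Ndufaf4, an assembly factor of complex I, was called higher in treated Tmem173-/- BMDCs, at 7.37 against 1.92 FPKM (1.88). Of the 38 assembly factors tested there, 1 was thus higher and 3 were lower, with a median of 0.04. Among all tested genes, 12.9% were called higher and 13.5% lower, so these counts were not above those shares.

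Of the genes of the tricarboxylic acid cycle, Idh2 (44.8 against 11.1 FPKM, 2.01), Idh3a (45.4 against 15.8 FPKM, 1.51) and Fh1 (76.1 against 34.9 FPKM, 1.12) were called higher when treated Tmem173-/- BMDCs were set against the wild-type ones, 3 of 14, with a median of 0.39. Of all tested genes, 12.9% were called higher there. None of the 14 was called in treated Irf1-/- or Irf3/7-/- BMDCs, where the medians were 0.25 and −0.09. In those comparisons 2.65% and 4.61% of all tested genes were called higher and 4.91% and 2.69% lower.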
